A study of Mus musculus with 12 samples.

Results

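The 10 genes described here encode the proteins of intestinal lipoproteins and of the machinery that assembles chylomicrons, and they were chosen by gene symbol among the 54532 genes measured. They are Apob, Mttp, Apobec1, Apoa1, Apoa2, Apoa4, Apoc1, Apoc2, Apoc3 and Apoe, and each symbol matched a single gene. Messenger RNA was measured by RNA sequencing in small intestine of C57BL/6J mice. Mice with a knockout of Piezo1, a mechanically gated calcium-permeable channel, in intestinal epithelial cells (CKO) were compared with floxed mice that kept the gene (flox). Each genotype was studied without injury (control) and with necrotizing enterocolitis (NEC), an inflammatory injury of the newborn bowel, which gave 4 groups of 3 libraries (flox control, CKO control, flox NEC and CKO NEC). Neither the labels nor the file headers give the age of the mice, the Cre line that deleted Piezo1 or the way NEC was produced. The tissue also holds muscle, stroma and immune cells outside the reach of an epithelial deletion, and in such bulk samples fewer cells of a type and less RNA per cell cannot be told apart. Whether the libraries of a group came from separate mice is not stated, so p-values measure only the spread between these libraries, which may be technical.

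Enterocytes pack dietary fat into chylomicrons. The particle forms in the endoplasmic reticulum around a single molecule of apolipoprotein B, onto which the microsomal triglyceride transfer protein, encoded by Mttp, loads lipid. In mouse intestine the enzyme encoded by Apobec1 edits Apob mRNA so that the short form, ApoB-48, is made. Smaller apolipoproteins then sit on the surface: ApoA-I and ApoA-IV, which enterocytes make in large amounts, the C apolipoproteins, which govern lipolysis by lipoprotein lipase, and apolipoprotein E, a ligand for receptors that clear remnants. The liver makes the same proteins for its own lipoproteins.

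The values are FPKM, reads scaled to gene length and to library depth, deposited in 2 tables, 1 for control and 1 for NEC. Each table had been scaled on its own, so levels are given below as rescaled FPKM, with all 12 libraries on 1 scale. Library depth was 13057724 to 16821130 reads. Piezo1 itself lay at 1.09 to 1.45 rescaled FPKM in flox control, 0.931 to 1.72 in CKO control, 6.10 to 6.61 in flox NEC and 2.98 to 5.02 in CKO NEC. The ranges of the genotypes overlapped in control and not in NEC, and the difference passed the test in neither (log2 of -0.06 ± 0.19 (SE), adjusted p = 0.846, and -0.53 ± 0.18, adjusted p = 0.840, limma, n = 3 per group). Piezo1 mRNA in whole tissue therefore gave no clear check of the genotype labels. The epithelial markers that define the labelled tissue were present, with 12 of 12 reaching 1 FPKM in some library. Of 10 hepatocyte markers, 5 (Alb, Ahsg, Apoh, Fgg and Hpx) stayed under 1 rescaled FPKM in all 12 libraries, with 0.736 as their highest value. Others of the list were not low: in flox control Ttr was at 277 ± 139 (SD, n = 3), Cps1 at 127 ± 22.2, Fga at 7.75 ± 3.59 and Fgb at 6.60 ± 0.960.

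Several of the genes lie side by side. On chromosome 9 (GRCm38, gene coordinates as deposited), Apoa1 (46228580 to 46230466, plus strand), Apoc3 (46232933 to 46235636, minus strand) and Apoa4 (46240696 to 46243459, plus strand) follow each other with gaps of 2466 and 5059 bases. On chromosome 7, all on the minus strand, Apoc2 (19671579 to 19677941), Apoc1 (19689481 to 19692660) and Apoe (19696109 to 19699188) are separated by 11539 and 3448 bases. Apob (chromosome 12, 7977648 to 8016835), Mttp (chromosome 3, 138089854 to 138144968), Apobec1 (chromosome 6, 122577792 to 122602444) and Apoa2 (chromosome 1, 171225054 to 171226379) stand alone. Apoa4 is overlapped on the other strand by Gm47528, at 3.61 to 15.6 rescaled FPKM, and Mttp by Trmt10a and Gm43691, each at 3.58 or less. Reads of overlapping genes can be told apart only if strand was used in counting, which the labels do not say.

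The stretches just upstream of Apoa1 and Apoa4, the highest of the 10 genes in every group, and of Apob, the gene of the particle's core protein, are printed. Over the 4 groups Apoa1 and Apoa4 were both lower in every NEC library than in every control library, Apoa1 by the larger fold. Apob followed another pattern. Each runs 5′ to 3′ and ends at the base before the gene start in the deposited table. They were taken from the 250 bases before each start site in a RefSeq promoter table (GRCm38.p6), which held 8 of the 10 genes. Capitals mark matches to CAAAGNNCA, a nuclear receptor site of the HNF4 type, on either strand, and to TATAAA, the TATA box, on the gene's strand. GTTAAT, a short form of the HNF1 site, was searched on both strands too.
Apoa1, chr9:46228380-46228579, plus strand: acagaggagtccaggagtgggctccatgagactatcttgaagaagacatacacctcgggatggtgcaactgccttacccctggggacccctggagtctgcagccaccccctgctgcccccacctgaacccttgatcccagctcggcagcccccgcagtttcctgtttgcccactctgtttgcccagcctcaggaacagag
Apoa4, chr9:46240594-46240695, plus strand: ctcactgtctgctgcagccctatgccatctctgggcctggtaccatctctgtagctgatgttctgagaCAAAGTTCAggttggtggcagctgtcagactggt
Apob, chr12:7977427-7977647, plus strand: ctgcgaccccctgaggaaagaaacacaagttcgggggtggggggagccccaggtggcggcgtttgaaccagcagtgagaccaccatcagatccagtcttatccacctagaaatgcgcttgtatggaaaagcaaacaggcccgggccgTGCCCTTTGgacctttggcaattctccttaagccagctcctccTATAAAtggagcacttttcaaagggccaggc

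The stretch of Apoa4 held the HNF4-type letters as CAAAGTTCA, 182 bases before the RefSeq start site. The stretch of Apob held them on the reverse strand (TGCCCTTTG on the strand printed), 103 bases before that site, and a TATA box at 60 bases. No match was found in the stretch of Apoa1, and no printed stretch held the HNF1 letters. Of the genes not printed, Apobec1 also held CAAAGTTCA, 191 bases before its start. The HNF1 letters lay 89 bases before the start of Apoc2 and 172 bases before a start of Apoe. The TATA letters lay 212 bases before a start of Apoa2 and 96 bases before another start of Apoe. The HNF4-type letters occurred in 5.49% of the 32851 RefSeq promoters, searched over the same 250 bases, the HNF1 letters in 6.43% and the TATA letters in 7.59%. The motifs were chosen after the sequences had been seen, and a match describes letters only.

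Together the 10 genes took 2.41% to 3.39% of all reads in flox control, 2.54% to 3.32% in CKO control, 1.37% to 2.03% in flox NEC and 1.46% to 1.998% in CKO NEC. Every NEC library lay below every control library. The genes spanned 4 orders of magnitude in level per length. In flox control Apoa1 came first at 11823 ± 498 rescaled FPKM (mean ± SD, n = 3), before Apoa4 (5935 ± 1579), Apoc3 (1305 ± 350), Apob (166 ± 34.9), Mttp (122 ± 28.1), Apoe (75.1 ± 11.1), Apobec1 (14.6 ± 5.37), Apoc1 (5.16 ± 0.637), Apoa2 (1.26 ± 0.317) and Apoc2 (0.995 ± 0.594). The ranges of neighbours in that order overlapped for Apob and Mttp and for Apoa2 and Apoc2 alone. CKO control had the same order, with an overlap between Apoa2 and Apoc2 alone. In both NEC groups the mean of Mttp stood above that of Apob and both above that of Apoc3, and the ranges of Apoa1 and Apoa4 overlapped. The ranges of Mttp and Apob overlapped in flox NEC, and those of Apob and Apoc3 in CKO NEC. By deposited FPKM, Apoa1 ranked between place 2 and place 6 of all genes in every library, Apoa4 between 6 and 13, and Apoc3 between 19 and 314.

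**Figure D1:**
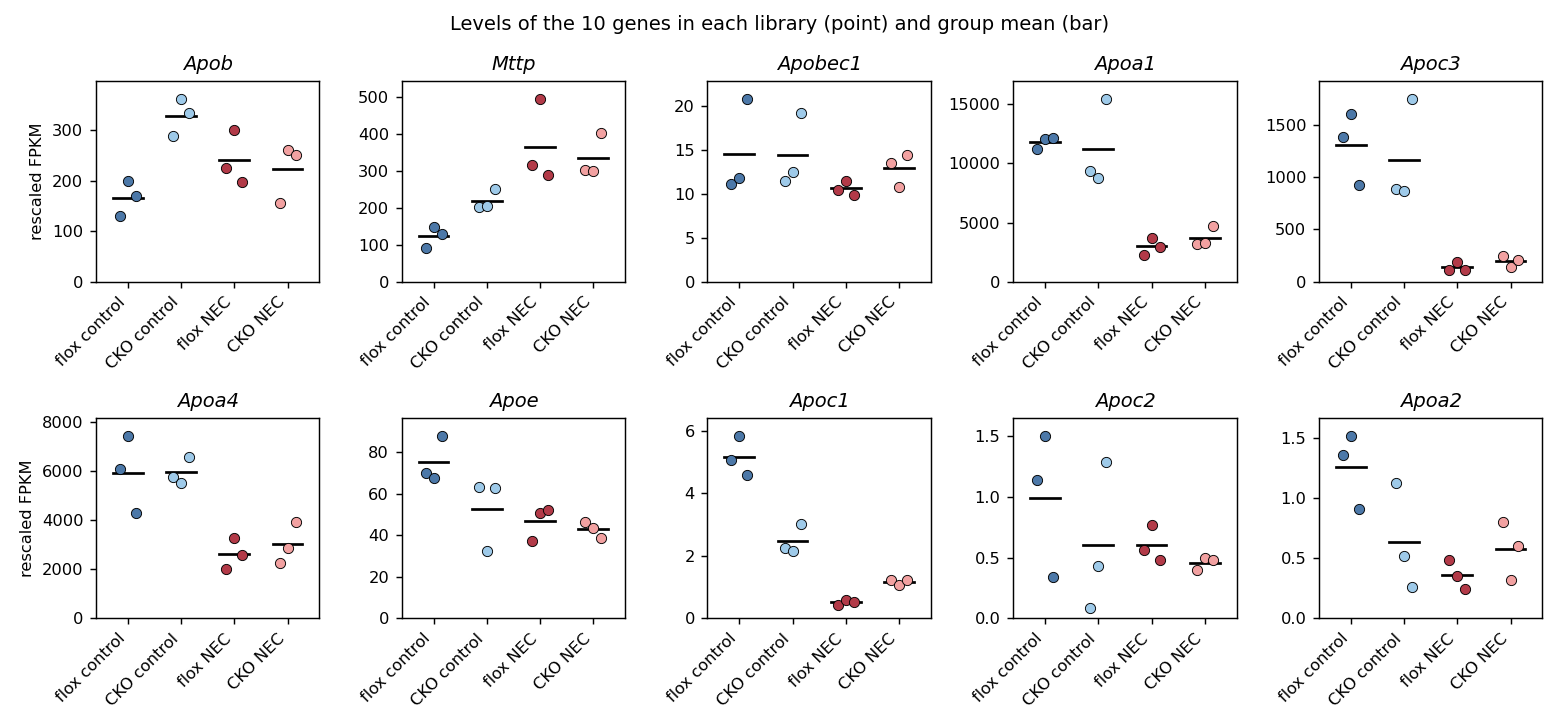
Level of each gene in rescaled FPKM (vertical axis, linear from 0) in each of the 12 libraries (points), with the mean of each group of 3 as a bar. Apoa1, Apoc3, Apoa4 and Apoc1 lie lower in all NEC libraries than in all control libraries, while Mttp lies higher in NEC. Quantile normalization turned the sign of Apoa1 in flox and of Apoa4 in both genotypes.

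With NEC in flox intestine Apoc3, Apoa1, Apoc1, Apoa4 and Apoe fell and Mttp alone rose (adjusted p under 0.05, limma on log2(rescaled FPKM + 1) with Benjamini-Hochberg adjustment over all genes tested). Apoa2 also passed as lower, which made 6, but it and Apoc2 were tested only because of their control libraries. The filter thus favoured a fall, and Apoa2 is left out of that list: of the other 8 genes 5 fell and 1 rose. Quantile normalization, which gives every library the same values by rank, turned the sign for Apoa1 (to 0.09) and Apoa4 (to 0.63), which rank at the very top of each library. The background was wide: 26.5% of all genes tested fell and 27.2% rose, 53.7% in either direction. The median log2 change of the 10 genes was -0.70, against 0.00 over all 14599 genes tested. In CKO intestine 4 fell (Apoc3, Apoa1, Apoc1 and Apoa4, the last again with its sign turned by quantile normalization) and 0 rose, where 23% of all genes fell and 20.2% rose, 43.2% in either direction. The libraries of the conditions did not overlap for 7 of the 10 genes in flox, beside 63.1% of all genes (30.9% lower in NEC), and for 6 in CKO, beside 51.9% (27.3% lower). The 7 in flox include Apoa2, which only control libraries carried past the filter. In CKO the median of the 10 was -0.41, against -0.01 over all genes. The medians in both genotypes include Apoa2 and Apoc2. Condition coincides with the deposited table, so injury and anything that differed between the tables cannot be told apart.

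**Figure D2:**
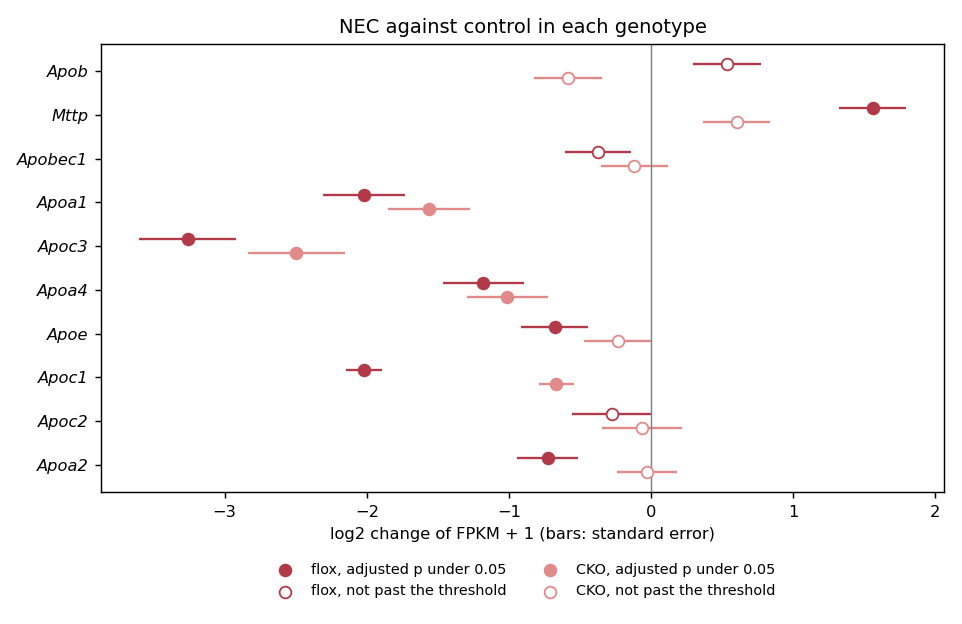
Log2 change of NEC against control (horizontal axis, on log2 of rescaled FPKM plus 1, bars are standard errors, 3 libraries per group) for each gene in flox (dark red) and CKO (light red). Filled points passed an adjusted p of 0.05: 7 in flox, of which Apoa2 passed the filter on low values only through control libraries, and 4 in CKO. With quantile normalization the sign turned for Apoa1 in flox and for Apoa4 in both genotypes.

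Apob, the structural protein of the particle, was read at 130, 199 and 171 rescaled FPKM in flox control, 288, 362 and 334 in CKO control, 225, 300 and 198 in flox NEC, and 155, 262 and 252 in CKO NEC. CKO control stood above flox control without overlap, and the other 2 groups lay between or across them. Without injury the log2 difference between CKO and flox was 0.99 ± 0.19 (SE), 1.99-fold, with an adjusted p of 0.0547 (limma on deposited FPKM, as for all genotype tests), just outside the threshold. It ranked in place 284 by p among 13300 genes, 298 of which had an adjusted p under 0.055. Apob was called under 5 of 18 alternatives (adjusted p from 0.0233 to 0.189), among them the fit without flox control 3 (0.0492). In NEC the genotypes differed by -0.14 ± 0.25 (adjusted p = 0.912). The difference between those effects was -1.13 ± 0.33 and missed the threshold (adjusted p = 0.0947). NEC against control gave values on either side of zero, 0.53 ± 0.24 in flox (adjusted p = 0.0792) and -0.59 ± 0.24 in CKO (adjusted p = 0.0666). Without CKO NEC 1 the value in flox was called (adjusted p = 0.0401, over alternatives from 0.00285 to 0.883).

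Mttp, the lipid transfer protein that loads Apob, was read at 91.6, 147 and 128 rescaled FPKM in flox control, 200, 205 and 250 in CKO control, 315, 493 and 287 in flox NEC, and 302, 298 and 402 in CKO NEC. All NEC libraries lay above all control libraries, and CKO control lay above flox control. Mttp rose 2.95-fold with NEC in flox (log2 1.56 ± 0.24, adjusted p = 2.57e-04, limma), and was called in 23 of 23 alternatives. In CKO the change was 0.60 ± 0.24 and missed the threshold (adjusted p = 0.0585). It passed without flox control 1 (0.0464) or flox NEC 2 (0.0351), over alternatives from 0.00393 to 0.168. The difference between genotypes without injury was 0.85 ± 0.20 (adjusted p = 0.0651, called under 4 of 18 alternatives), and in NEC it was -0.12 ± 0.24 (adjusted p = 0.927). The interaction, -0.97 ± 0.33, did not pass (adjusted p = 0.130).

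Apobec1, the cytidine deaminase that edits Apob mRNA, was read at 11.2, 11.8 and 20.8 rescaled FPKM in flox control, 11.4, 12.4 and 19.2 in CKO control, 10.5, 11.4 and 9.90 in flox NEC, and 13.5, 10.8 and 14.5 in CKO NEC. The 4 groups overlapped. Its log2 change was -0.37 ± 0.23 with NEC in flox (adjusted p = 0.197) and -0.12 ± 0.23 in CKO (adjusted p = 0.709). It was -0.00 ± 0.28 between genotypes in control (adjusted p = 0.999) and 0.24 ± 0.13 in NEC (adjusted p = 0.840). The partners of the enzyme were listed as 8 genes. With NEC in flox 6 were called (75%, beside 53.7% of all genes): 5 rose, among them Syncrip (0.98 ± 0.12) and Celf1 (0.84 ± 0.09), RNA-binding proteins, and A1cf (0.53 ± 0.18), the RNA-binding cofactor of the enzyme. The chaperone gene Dnajb11 fell (-0.47 ± 0.17). The 5 include Celf2, which reached the filter only through NEC libraries. In CKO 3 were called (37.5%, beside 43.2% of all genes): Syncrip rose (0.76 ± 0.12) while Dnajb11 (-0.81 ± 0.17) and A1cf (-0.75 ± 0.18) fell. A1cf was at 9.49 ± 1.27 rescaled FPKM in flox control, 20.4 ± 4.38 in CKO control, 14.3 ± 2.60 in flox NEC and 11.6 ± 1.53 in CKO NEC (SD, n = 3), with an interaction of -1.30 ± 0.25 (adjusted p = 0.0442, limma). Celf1 passed that test too (-0.65 ± 0.13, adjusted p = 0.0478). The interaction was called for 1.22% of the 14808 genes tested (181). That count was 646 without flox control 3, 307 without CKO control 3, 28 without CKO NEC 3, and 0 to 2 without any other library.

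Apoa1, the main protein of high-density lipoprotein, was read at 11251, 12051 and 12166 rescaled FPKM in flox control, 9357, 8811 and 15436 in CKO control, 2244, 3723 and 2952 in flox NEC, and 3182, 3302 and 4686 in CKO NEC. Every NEC library stood below every control library, and CKO control spread most. It fell 4.06-fold with NEC in flox (log2 -2.02 ± 0.29, adjusted p = 1.72e-04) and 2.96-fold in CKO (-1.56 ± 0.29, adjusted p = 0.00151, limma), except that quantile normalization gave 0.09 in flox (adjusted p = 0.790) and -0.48 in CKO (adjusted p = 0.171). Both calls were also lost with no filter on low values (adjusted p = 0.181 and 0.362), and the other alternatives called both, with adjusted p down to 4.02e-05 and 4.58e-04. The genotypes differed by -0.12 ± 0.28 in control (adjusted p = 0.800) and by 0.32 ± 0.30 in NEC (adjusted p = 0.859).

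Apoc3, an inhibitor of lipoprotein lipase and of remnant uptake, was read at 1388, 1606 and 922 rescaled FPKM in flox control, 889, 867 and 1748 in CKO control, 107, 191 and 112 in flox NEC, and 247, 143 and 210 in CKO NEC. Control and NEC libraries were far apart in both genotypes, and the genotypes overlapped in both conditions. On the scale of log2(FPKM + 1) it had the largest fold change of the 10 genes with NEC in both genotypes, while by the ratio of mean rescaled FPKM Apoc1 fell further in flox (10.01-fold against 9.54-fold). The tested change of Apoc3 was 9.57-fold lower in flox (log2 -3.26 ± 0.34, adjusted p = 2.70e-05) and 5.64-fold lower in CKO (-2.50 ± 0.34, adjusted p = 3.11e-04, limma). Both were called in 23 of 23 alternatives. The genotypes differed by -0.20 ± 0.34 in control (adjusted p = 0.725) and by 0.55 ± 0.28 in NEC (adjusted p = 0.840), and the interaction was 0.75 ± 0.48 (adjusted p = 0.407).

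Apoa4, a fat-induced apolipoprotein of nascent chylomicrons, was read at 6093, 7429 and 4283 rescaled FPKM in flox control, 5766, 5516 and 6580 in CKO control, 1996, 3256 and 2564 in flox NEC, and 2270, 2866 and 3909 in CKO NEC. The highest NEC library (3909) lay below the lowest control library (4283). Apoa4 fell 2.27-fold with NEC in flox (log2 -1.18 ± 0.28, adjusted p = 0.00476) and 2.02-fold in CKO (-1.01 ± 0.28, adjusted p = 0.0146, limma). Quantile normalization turned both, to 0.63 (adjusted p = 0.0663) and 0.23 (adjusted p = 0.511). The calls were also lost with no filter on low values (adjusted p = 0.300 and 0.415), and in CKO without CKO NEC 1 (-0.83, adjusted p = 0.0536). The lowest adjusted p of any alternative was 0.000804 in flox and 0.00666 in CKO. The genotypes differed by 0.04 ± 0.26 in control (adjusted p = 0.939) and by 0.19 ± 0.31 in NEC (adjusted p = 0.904). Of the distal markers of the small intestine (7 genes, bile acid handling among them), the summed level was 1249 in flox control 3 and 685 in CKO control 3, against 257 to 367 in the other control libraries and 381 to 591 in NEC. Single markers spread too. In flox control 1, 2 and 3 Gata4, of the proximal markers, was at 10.8, 14.8 and 0.926 rescaled FPKM. Fabp1, an epithelial marker, was at 315, 774 and 0.503 there, and Fabp6, a distal marker, at 45.1, 28.4 and 490. In CKO control Gata4 was at 9.27, 8.35 and 14.5, and Fabp1 at 328, 262 and 105. Within NEC, Gata4 was at 13.3 in CKO NEC 1, and at 0.309 and 0.883 in CKO NEC 2 and 3. Fabp1 was at 575, 2.28 and 6.35 in these libraries. The summed proximal markers stood at 53.6, 64.0 and 79.6, a rise that came from Slc40a1. This proximal marker was at 17.3 in CKO NEC 1 and at 48.6 or more in CKO NEC 2 and 3. Slc2a2, also of the list, was lowest in CKO NEC 2 (8.76), and Cybrd1 stayed between 2.01 and 2.26. The sum therefore does not show the proximal list as a whole going against Gata4. Apoa4 and Apoc3 were lowest of the flox control libraries in flox control 3, while in CKO control both were highest in CKO control 3. The part of the sampled region in these values was not tested.

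Apoe was read at 69.9, 67.7 and 87.8 rescaled FPKM in flox control, 63.0, 32.6 and 62.9 in CKO control, 37.5, 50.6 and 52.0 in flox NEC, and 46.5, 43.6 and 38.6 in CKO NEC. The flox control libraries were the highest, and the other groups overlapped. Apoe fell 1.60-fold with NEC in flox (log2 -0.68 ± 0.24, adjusted p = 0.0304, limma), a call that held in 16 of 23 alternatives (adjusted p up to 0.211) and was lost without flox control 1 (0.0516), flox control 3 (0.0970) or flox NEC 1 (0.116). In CKO the change was -0.24 ± 0.24 (adjusted p = 0.445), called without CKO control 2 alone (-0.55, adjusted p = 0.0335, over alternatives up to 0.826). The genotypes differed by -0.55 ± 0.27 in control (adjusted p = 0.219) and by -0.12 ± 0.16 in NEC (adjusted p = 0.889). Macrophages are another known source of Apoe. The summed level of 10 macrophage and monocyte markers was 137 to 151 rescaled FPKM in flox control, 130 to 147 in CKO control, 63.4 to 75.8 in flox NEC and 50.2 to 67.5 in CKO NEC. Of the 9 tested, 3 fell and 2 rose with NEC in flox (3 and 1 of 7 without Adgre1 and Cd163, tested only through NEC libraries). Ccr2 was near 0 in all 12 libraries (at most 0.196). Their part in the level of Apoe was not tested.

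Apoc1, a small C apolipoprotein that inhibits lipid uptake and transfer, is the neighbour of Apoe and was read from few reads. Its libraries held 57, 64 and 49 reads in flox control, 25, 23 and 32 in CKO control, 5, 7 and 6 in flox NEC, and 17, 14 and 14 in CKO NEC. In rescaled FPKM these were 5.08, 5.84 and 4.58, then 2.25, 2.15 and 3.01, then 0.440, 0.586 and 0.521, then 1.23, 1.08 and 1.22. The groups did not overlap: flox was higher than CKO without injury and lower than CKO in NEC. Apoc1 fell with NEC in flox (log2 -2.02 ± 0.13, adjusted p = 3.89e-06) and in CKO (-0.67 ± 0.13, adjusted p = 0.00177, limma), a scale that understates the change of so low a gene. Both calls held in 22 of 22 alternatives.

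The genotype difference of Apoc1 was -0.83 ± 0.15 in control (adjusted p = 0.0547, called under 3 of 17 alternatives, the fit without flox control 3 among them at 0.0436, over a range from 0.00664 to 0.189). In NEC it was 0.55 ± 0.14 (adjusted p = 0.840). There Apoc1 passed the filter on low values only through the CKO libraries, so it had to differ and the value supports nothing. The interaction, 1.38 ± 0.18 (adjusted p = 0.0367, limma), passed the threshold for Apoc1 alone among the 10 genes. The call held in 12 of 22 alternatives, with adjusted p from 0.0129 to 0.113. It was lost with limma-voom on the reads (0.0504) and without any 1 of 9 libraries: flox control 1 or 2, CKO control 1 or 2, each flox NEC library, and CKO NEC 1 or 2. Its sign did not turn in these alternatives.

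Apoc2, the cofactor that activates lipoprotein lipase, and Apoa2, a second protein of high-density lipoprotein that is made chiefly in liver, were close to the lower limit of these data. Apoc2 lay at 0.342 to 1.503 rescaled FPKM in flox control, 0.0824 to 1.29 in CKO control, 0.477 to 0.767 in flox NEC and 0.396 to 0.494 in CKO NEC, with wide overlap. Its change with NEC was -0.27 ± 0.28 in flox (adjusted p = 0.433) and -0.07 ± 0.28 in CKO (adjusted p = 0.866). Apoa2 lay at 1.36, 1.52 and 0.906 in flox control, from 30 reads in all, at 0.261 to 1.123 in CKO control, at 0.487, 0.348 and 0.241 in flox NEC, from 9 reads, and at 0.320 to 0.799 in CKO NEC. It fell in flox (-0.73 ± 0.21, adjusted p = 0.0133, limma). It was tested only because of its control libraries, so the filter favoured a fall and the call supports nothing. In CKO the change of Apoa2 was -0.03 ± 0.21 (adjusted p = 0.920). Both genes were not tested between genotypes in NEC. In control the genotypes differed by -0.34 ± 0.35 for Apoc2 (adjusted p = 0.548) and by -0.49 ± 0.24 for Apoa2 (adjusted p = 0.220).

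Between genotypes, none of the 10 genes was called without injury, where limma called 1 gene of 13300 (0.00752%) and 28.9% of genes had an unadjusted p under 0.05. Without flox control 3 limma called 830 genes, 2 of the 10 among them (Apob and Apoc1), and without any other control library 0. Of the 10 genes, 3 had such a p (Apoc1, Apob and Mttp), and 4 had groups that did not overlap (those and Apoe), beside 34.5% of all genes. The median difference was -0.16 over the 10 and 0.04 over all genes. In NEC 8 of the 10 were tested and 0 were called, as were 0 of all 13673 genes by limma (599 at an unadjusted p under 0.05) and 0 by limma-voom. Only Apoc1 had groups apart there, beside 11% of all genes (4.83% higher and 6.14% lower in CKO). Its CKO libraries alone carried it past the filter on low values, so its groups had to lie apart and the gap supports nothing. Both comparisons are small, and a missed threshold does not show equal levels.

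**Figure D3:**
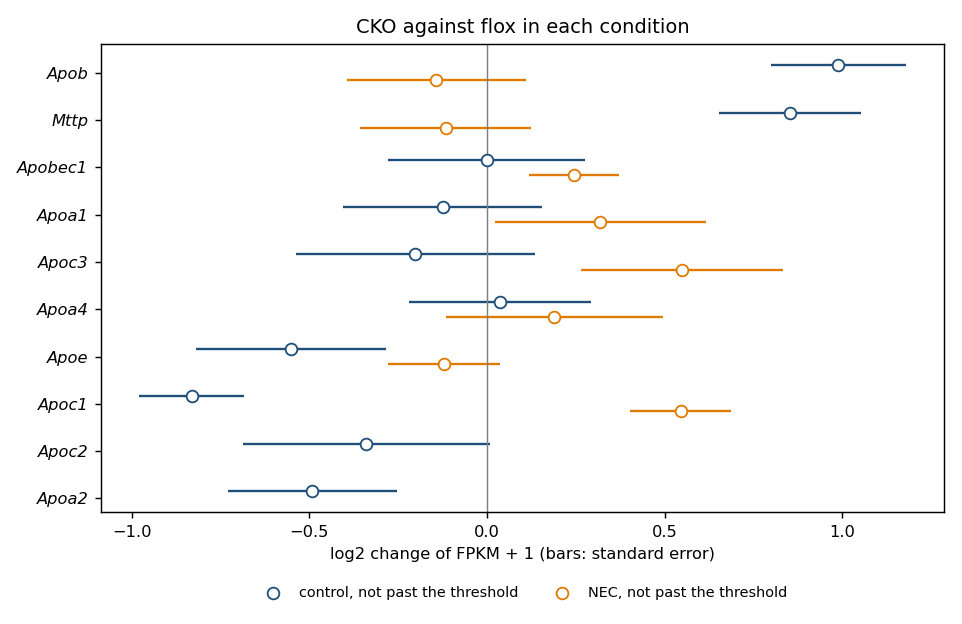
Log2 difference of CKO against flox (horizontal axis, on log2 of deposited FPKM plus 1, bars are standard errors, 3 libraries per group) in control (blue) and NEC (orange). No point passed an adjusted p of 0.05. Apoc2 and Apoa2 were not tested in NEC. Apob, Mttp and Apoc1 lie farthest from zero in control.

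Ratios within a library do not depend on how libraries were scaled. The trend with gene length given below does enter them where 2 genes differ in length, as Apoa1 and Apob do. The ratio of Apoa1 to Apob (FPKM over FPKM) was 86.8, 60.6 and 71.3 in flox control, 32.5, 24.4 and 46.2 in CKO control, 9.97, 12.4 and 14.9 in flox NEC, and 20.52, 12.6 and 18.6 in CKO NEC. The flox control libraries stood above those of CKO control, and both stood above all NEC libraries. The ratio of Mttp to Apob was 0.707, 0.739 and 0.748 in flox control, 0.696, 0.567 and 0.748 in CKO control, 1.401, 1.64 and 1.45 in flox NEC, and 1.94, 1.14 and 1.60 in CKO NEC. It overlapped between genotypes in both conditions and stood above 1 in all NEC libraries and below 1 in all control libraries. These ratios show unequal change of the genes and not which of them changed.

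**Figure D4:**
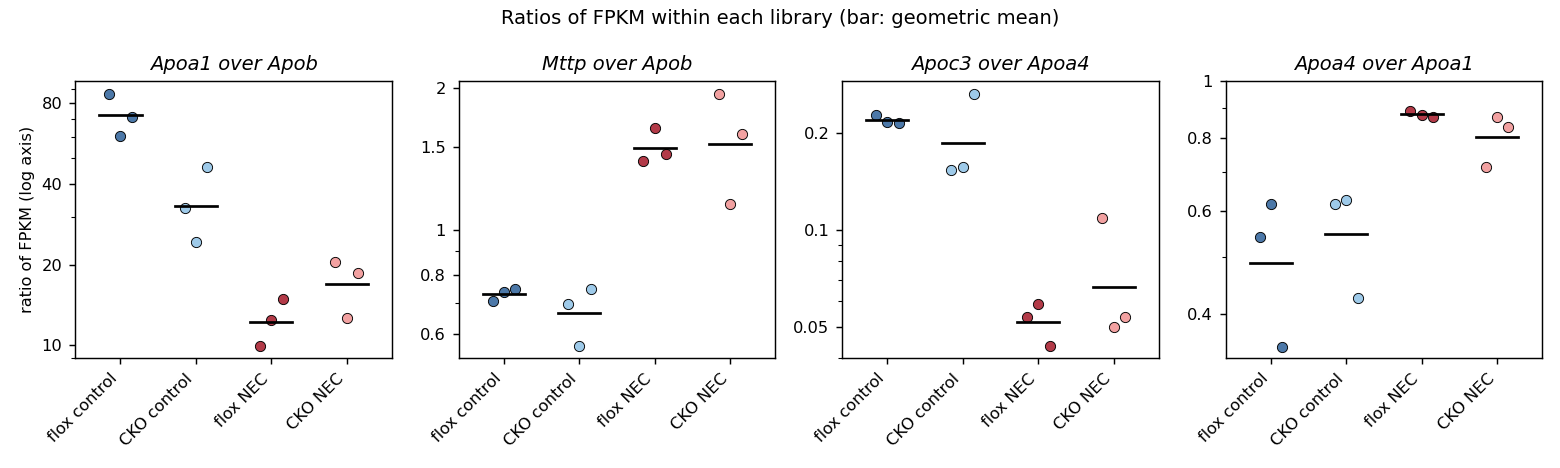
Ratios of FPKM within each library (vertical log axis, points are libraries, bars are geometric means of 3) for 4 pairs of genes. Apoa1 over Apob and Apoc3 over Apoa4 lie lower, and Mttp over Apob and Apoa4 over Apoa1 higher, in all NEC libraries than in all control libraries.

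Gene length moved with these comparisons. The apolipoprotein genes with the largest falls are short (Apoc1 0.744 kb, Apoc3 1.01, Apoa1 1.24 and Apoa4 1.815 kb of gene model), while Apob has 13.9 kb and Mttp 6.21 kb. Over all genes, the median log2 change with NEC in flox was -0.29 under 1 kb, -0.40 from 1 to 2 kb, 0.16 from 4 to 8 kb and 0.43 above 8 kb. In CKO these medians were -0.09, -0.20, 0.05 and 0.19, and for CKO against flox in control -0.16, -0.10, 0.11 and 0.18. With the trend on length removed, an alternative chosen after seeing the data, the changes in flox were -2.89 for Apoc3, -1.65 for Apoa1, -1.68 for Apoc1, -0.87 for Apoa4 and 1.34 for Mttp, all still called. Apoe (-0.41, adjusted p = 0.156) and Apoa2 (-0.41, adjusted p = 0.125) were lost, and Apob in CKO was called as lower (-0.83, adjusted p = 0.0157, over alternatives up to 0.822). Without injury Apob then differed by 0.85 (adjusted p = 0.0745) between genotypes, Mttp by 0.76 (0.0879) and Apoc1 by -0.63 (0.0745).

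**Figure D5:**
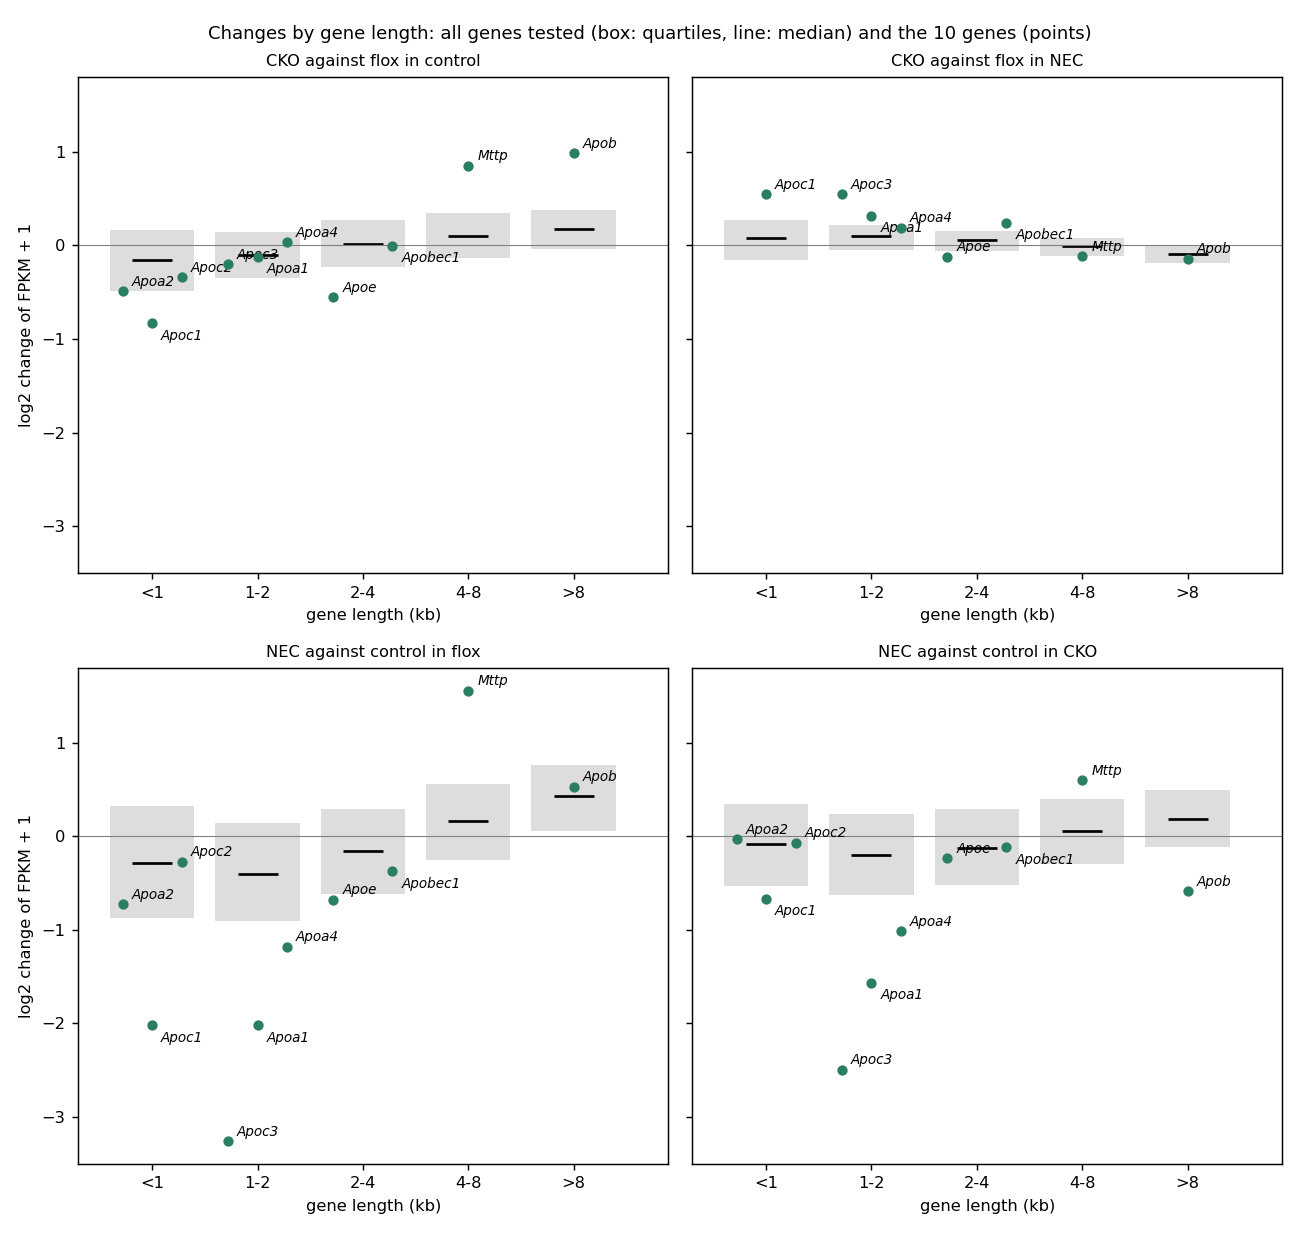
Log2 change (vertical axis, on log2 of FPKM plus 1) against class of gene length (horizontal axis, kb) in 4 comparisons. Grey boxes span the quartiles of all genes tested in a class, black lines are medians and green points are the 10 genes. With NEC in flox, Apoc3, Apoa1, Apoc1, Apoa4, Apoe and Mttp lie outside the boxes of their classes and Apob inside.

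The rest of the route was followed in fixed lists. Of 21 genes for lipidation and secretion of chylomicrons, 19 were tested. With NEC in flox 5 fell and 4 rose, 47.4% of those tested beside 53.7% of all genes. Those that fell include Prap1, which encodes a lipid-binding protein (1104 ± 116 rescaled FPKM in control, 85.1 ± 16.3 in NEC), Tm6sf2 (177 ± 12.9 and 65.8 ± 10.3) and Pla2g12b (63.0 ± 11.0 and 30.1 ± 5.61), which act in particle lipidation, and Mogat2 (164 ± 21.3 and 84.6 ± 8.07), which makes diacylglycerol from absorbed monoacylglycerol. The 4 that rose are genes of export from the endoplasmic reticulum: the coat subunits Sec23a (26.4 ± 5.74 and 47.1 ± 6.08) and Sec23b (6.58 ± 0.474 and 10.3 ± 1.03), and the cargo receptors Mia2 (14.0 ± 2.10 and 26.1 ± 3.28) and Mia3 (14.8 ± 1.56 and 20.4 ± 1.02). Other export genes of the list did not pass, among them Sar1b (log2 0.41 ± 0.25), Sec24c (0.01 ± 0.10) and Surf4 (0.05 ± 0.15). In CKO 7 fell, Prap1, Mogat2, Tm6sf2 and Pla2g12b among them, and 0 rose, 36.8% beside 43.2% of all genes. Neither share was above that of all genes. Apom, among the 7, was carried past the filter by control libraries. The list's median was 0.02 in flox and -0.23 in CKO, beside 0.00 and -0.01 over all genes. Between genotypes in control 0 of the 19 were called, 7 had an unadjusted p under 0.05, and the median was 0.33 against 0.04 over all genes. In NEC 0 were called.

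Of 17 regulators of apolipoprotein genes, 7 rose and 2 fell with NEC in flox, and 4 rose and 3 fell in CKO. These are 52.9% and 41.2% of the list, near the 53.7% and 43.2% of all genes, so the counts show nothing about the regulators as a list. Foxa2, counted as higher in both, was tested only because of its NEC libraries, so the filter favoured a rise and its calls support nothing. Hnf4g, a nuclear receptor of enterocytes, was read at 13.5, 11.95 and 17.1 rescaled FPKM in flox control, 40.2, 44.6 and 39.9 in CKO control, 45.3, 53.1 and 39.3 in flox NEC, and 47.2, 51.5 and 46.9 in CKO NEC. Flox control was low, and the other 3 groups lay between 39.3 and 53.1. Hnf4a, also of the list, was higher in level and was called in no comparison. It was at 121 ± 32.1 rescaled FPKM in flox control, 149 ± 5.83 in CKO control, 112 ± 12.3 in flox NEC and 115 ± 32.7 in CKO NEC (SD, n = 3). Hnf4g rose with NEC in flox (log2 1.63 ± 0.14), the genotypes differed in control by 1.498 ± 0.15 (adjusted p = 0.0547), and the interaction passed the threshold (-1.42 ± 0.20, adjusted p = 0.0367, limma). Nr1h3, a sterol-sensing receptor, fell with NEC in both genotypes (-1.55 ± 0.18 in flox, -1.50 ± 0.18 in CKO), and Ppara, a fatty acid-sensing receptor, rose in both (2.01 ± 0.25 and 1.23 ± 0.25). The forkhead factor Foxa3 also rose in both (1.02 ± 0.13 and 0.79 ± 0.13). Between genotypes 0 of the list were called in either condition.

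Of 16 receptors, lipases and transfer proteins that act on secreted lipoproteins, 14 were tested. With NEC 10 rose and 1 fell in flox, and 7 rose and 1 fell in CKO, 78.6% and 57.1% of those tested beside 53.7% and 43.2% of all genes. Lrp8 and Vldlr, counted as higher in both, and Lmf1, the 1 that fell, were tested only through the libraries of 1 condition. For these genes the filter favoured a difference, so their calls support nothing. Of the other 11 genes 8 rose in flox and 5 in CKO, and 0 fell. Abca1, which lipidates ApoA-I, went from 1.43 ± 0.619 to 6.41 ± 0.415 rescaled FPKM in flox and from 1.74 ± 0.543 to 4.91 ± 0.929 in CKO. Pltp, the phospholipid transfer protein of plasma, went from 1.89 ± 0.450 to 4.95 ± 0.245 and from 1.25 ± 0.481 to 4.61 ± 0.891. All of these changes were called. The list's median was 0.68 in flox and 0.61 in CKO.

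Markers of cell types moved with the same comparisons. With NEC, 7 of 8 tested markers of suckling enterocytes fell in flox and 8 of 8 in CKO (6 and 7 of 7 without Nox4, which only control libraries carried past the filter), and the summed level of the 9 in the list went from 1600 to 2055 rescaled FPKM in flox control and 2240 to 2777 in CKO control to 308 to 380 and 268 to 559 in NEC. The 12 general epithelial markers summed to 4898 to 6505 in flox control, 5726 to 7425 in CKO control, 3950 to 5241 in flox NEC and 3839 to 5620 in CKO NEC. In flox 4 of them rose and 3 fell with NEC, in CKO 1 rose and 3 fell. Between genotypes in control, 11 of the 12 lay above zero with a median of 0.47, beside Apob and Mttp, and 0 were called. In that comparison 0 of 8 smooth muscle and 0 of 8 fibroblast and matrix markers lay above zero (medians -0.87 and -0.93). Of 7 tested markers of enteric glia and neurons 0 lay above zero (median -0.87). Of these 3 lists 0 were called. The 8 smooth muscle markers summed to 737 to 938 in flox control, 216 to 644 in CKO control, 1841 to 2906 in flox NEC and 545 to 2090 in CKO NEC. Their parts in the apolipoprotein levels were not tested. Of the hepatocyte list 4 of 10 were tested: 3 fell with NEC in flox (Ttr, Fga and Fgb) while Cps1 rose, all 4 fell in CKO (Fga and Fgb were tested only through control libraries), and the sum was 271 to 497, 367 to 560, 215 to 233 and 176 to 257 in the 4 groups.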

How the data were processed

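Per the labels, RNA of the small intestine came from a Trizol extraction and was sequenced after preparation with a NEBNext Ultra II kit. The authors deposited FPKM values in 2 tables, 1 for control and 1 for NEC, of 6 libraries and 54532 genes each. Neither the labels nor the headers name the aligner, the counter, its use of strand or the genome build. Gene coordinates were identical to GENCODE M21 (GRCm38) for 53499 of 54409 matched genes, the 10 described here included.

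Multiplied by gene length, 100% of the FPKM values were whole multiples of 1 step per library (tolerance 0.05), which gave reads per gene. The recovery was tested on simulated data. Rescaled FPKM was computed from these reads, gene length and median-of-ratios factors over 12 libraries. Deposited NEC values sit 0.1511 log2 above that scale. Depth limits the precision of Apoc1, Apoc2 and Apoa2, and intervals for counting error were not computed.

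Genotypes were compared on deposited FPKM within a table (6 libraries), their interaction over 12 libraries, and NEC against control on rescaled FPKM in a fit of 12 libraries with 4 group means. All used limma 3.58.1 in R 4.3.3 with a variance trend on log2(value + 1), for genes that reached 1 FPKM in 3 or more libraries, with Benjamini-Hochberg adjustment over all genes tested at 0.05. limma was tested on simulated data. A fold change on that scale understates the change of low genes. Alternatives were a pseudocount of 0.1, no filter, a mean FPKM of at least 5, a block on the replicate number, equal medians, no trend, quantile normalization, array weights, limma-voom on the reads, other scalings, all 4 groups in 1 fit, and each library left out. Named genes are the 10, then those of the lists past the threshold, up to 4 per list and comparison by smallest p. Further genes of the lists are named to show how a list spread or passed the filter. The genes, lists and tests were chosen with earlier results of these data known. Marker lists for proximal intestine, fibroblasts, enteric glia and neurons, and pancreas were also read, and their counts with NEC are given at the end.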

Additional observations from a re-analysis of the deposited data

Results flagged for a closer look

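A test of whether the genotype difference of Apoc1 differed between NEC and control passed the threshold (log2 1.38 ± 0.18, adjusted p = 0.0367, limma). CKO lay below flox in control (-0.83 ± 0.15). In NEC the value was 0.55 ± 0.14, but in the fit of the NEC libraries Apoc1 passed the filter only through CKO, so that value had to differ from zero and supports nothing. The NEC libraries rest on 5 to 7 reads in flox and 14 to 17 in CKO. The call was lost in 10 of 22 alternatives.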

How the results depend on the processing

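Of 974 values of single genes recomputed under alternatives, 923 stayed on the same side of the threshold, 24 lost a call, 24 gained one and 3 turned direction. Of the 10 genes, 0 were called between genotypes in control, and 2 with a mean FPKM of at least 5 or with the replicate block, 3 with array weights or all 4 groups in 1 fit, and 0 to 2 with 1 library left out (Apob, Mttp and Apoc1 in different sets). Between genotypes in NEC 0 were called in all alternatives, leave-one-out fits included. The interaction was called for 1, and for 0 with a mean FPKM of at least 5, which left Apoc1 untested, or with limma-voom, and for 0 to 1 with 1 library left out. With NEC in flox 7 were called, 4 with no filter and 5 to 8 with 1 library left out, and in CKO 4, 2 with no filter and 3 to 5. The direction turned with quantile normalization for Apoa1 in flox (0.091) and for Apoa4 in flox (0.63) and CKO (0.23). By construction that step sets the top ranks of every library to the same values. Deposited values moved the median change of all genes with NEC to 0.13 in flox and 0.10 in CKO. Higher calls over all genes then numbered 4972 in flox and 3907 in CKO, and lower calls 3148 and 2543, against 3969, 2946, 3868 and 3356 on the shared scale. Other counts over all genes moved by more than 1.5 times: between genotypes in control from 1 gene to 760 with a mean FPKM of at least 5, 903 with the replicate block, 2200 with array weights, 360 with limma-voom and 2051 with all 4 groups in 1 fit, and the interaction from 181 to 973 with array weights, 417 with a mean FPKM of at least 5, 47 with the length trend removed, 44 without the variance trend, 41 with no filter and 24 with equal medians. The replicate numbers of the labels did not pair the libraries: deviations of same-numbered libraries correlated at 0.138, -0.0301 and 0.366 in control and 0.182, -0.136 and 0.0933 in NEC. With the number as a block 8 of the 10 genes were called with NEC in flox and 6 in CKO, Apob in both and Mttp in CKO added, and 1 in the interaction.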

Other observations

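The genes most like 3 of the 10 over the 12 libraries were sought among 7563 genes with a mean of at least 5 rescaled FPKM, by the root mean square difference of centred log2(rescaled FPKM + 1). For Apob they were Heph (0.142), Atp6v1a (0.181) and Manba (0.189), where Apob's own deviation was 0.436. Heph, an iron oxidase of enterocytes, was at 26.1 ± 6.82 rescaled FPKM in flox control, 50.2 ± 4.97 in CKO control, 38.6 ± 6.71 in flox NEC and 38.1 ± 9.81 in CKO NEC (SD, n = 3). For Apoa1, with a deviation of 0.944, they were Prdx5 (0.150), Spsb2 (0.176) and Ctsz (0.183), and Ctsz, a lysosomal protease, went from 1281 ± 85.5 in flox control and 1416 ± 194 in CKO control to 348 ± 31.9 and 422 ± 112 in NEC. For Apoe, with a deviation of 0.401, they were Hid1 (0.166), Safb2 (0.211) and Polr2l (0.212). These are descriptions with no test.

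Of 8 proximal small intestine markers 6 were tested: 2 rose and 1 fell with NEC in flox, and 2 rose and 2 fell in CKO. Of 7 distal markers 2 rose and 2 fell in flox, and 3 rose in CKO. The 8 fibroblast and matrix markers rose in 6 cases in flox and 8 in CKO, and 2 of the 8 smooth muscle markers rose in each, with 1 lower in flox. Of 7 tested markers of enteric glia and neurons 1 fell in each genotype, and of 3 tested pancreatic markers 2 fell in each. Of 9 tested macrophage and monocyte markers 1 rose and 4 fell in CKO. Among these, Adh6a, Cyp4v3, Slc10a2, Cd163, S100b and Ctrb1 were tested only through the libraries of the condition where they are high. The filter favoured a difference for them, so their calls support nothing. Without such genes 0 proximal markers rose, 1 distal marker rose in flox and 2 in CKO, and 0 glia and neuron markers fell. Mitochondrially encoded genes took 11.1% to 14.3% of reads in flox control, 5.11% to 6.76% in CKO control and 3.47% to 4.52% in NEC.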
